A study of Cannabis sativa with 6 samples.

Results

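The leaf transcripts described here were those that were both abundant in heated plants and far above their control level. They were the 195 nuclear genes, of 34253 genes counted, that met 3 conditions. The mean of the heat libraries was at least 500 counts per 1000000 gene counts of a library (CPM), the control libraries together held at least 1 count, and the heat mean was at least 4 times the control mean. The genes were chosen by these measured heat and control levels, which are therefore given as a description, with no test of the contrast. The genes carry only locus numbers in the sources used here, so no product or role is given for any of them.

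The leaves were those of soil-grown seedlings of *Cannabis sativa* cv. Pink Pepper. Over 7 days the chamber temperature was 45 ± 2 °C for the heat group and 23 ± 1 °C for the control group, and both groups had a relative humidity of 40 ± 4%. All plants shared the cultivar, the tissue and the growth conditions before treatment, and 1 time point was sampled. Messenger RNA was sequenced in 3 libraries for each group. Whether each library stands for its own plant is not in the labels, and the spread between libraries may be technical. The tissue label was not checked against leaf marker genes, because the files name no products.

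As background, plants exposed to high temperature activate heat shock transcription factors, which raise transcripts of chaperones that hold or refold damaged proteins. Over longer exposure, transcripts for protein turnover, removal of reactive oxygen and protection from water loss can also accumulate, and those of photosynthesis often decline. Leaf RNA reports the pool of each transcript, which depends on both synthesis and decay. Which of the locus numbers below belong to these processes was not determined here.

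The heat libraries held 28492832 to 30012772 gene counts and the control libraries 30766680 to 36584253. At these depths each of the 195 genes had at least 13288 counts in every heat library, so counting error is small on the heat side and limits only the lowest control levels. Of all listed reads, 84.1% ± 0.104 were counted for a gene in heat and 88.8% ± 0.178 in control (SD, n = 3 each). Reads outside annotated exons made up 6.05% ± 0.108 in heat and 1.79% ± 0.0634 in control. Whether this difference between the libraries plays a part in the levels below was not tested.

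Together the 195 genes took a large part of the gene counts of the heated leaf. Their summed share was 25.3%, 25.3% and 25.5% in the heat libraries, against 2.11%, 2.14% and 2.11% in the control libraries. The heat mean of 25.4% ± 0.112 was 11.95 times the control mean of 2.12% ± 0.0169 (SD, n = 3 each). The groups are far apart, a direction the rule sets, and the libraries of a group nearly coincide. The same rule turned round, with a control mean of at least 500 CPM that was at least 4 times the heat mean and at least 1 heat count, gave 145 genes. These took 1.67% ± 0.0170 of the counts in heat and 32.2% ± 0.0710 in control. The bulk leaf values cannot tell more RNA per cell from more cells of one type.

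**Figure D1:**
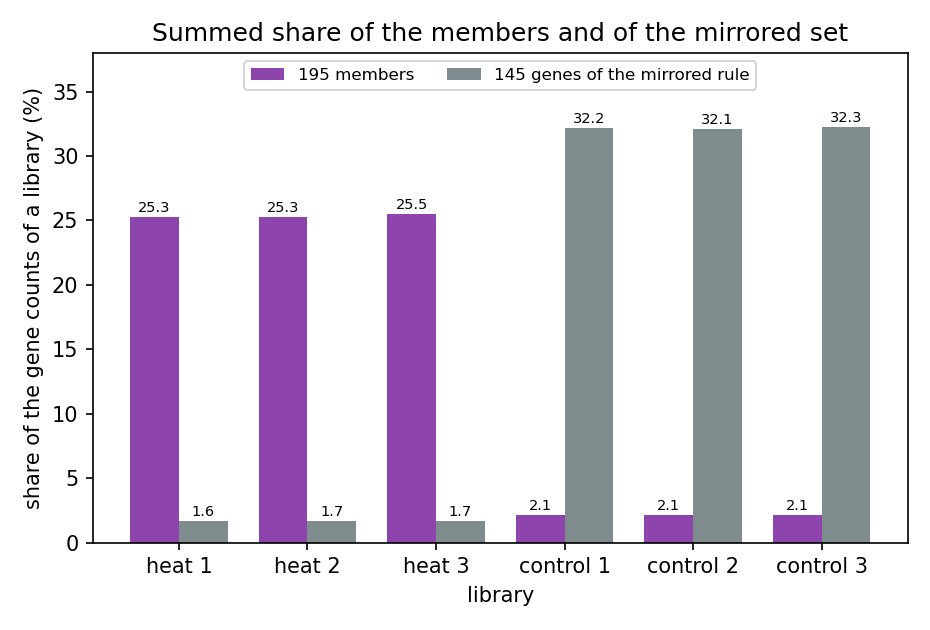
Bars give the share of all gene counts of each library (%) held by the 195 genes (purple) and by the 145 genes of the mirrored rule (grey), heat libraries at the left. The 195 genes hold 25.3% to 25.5% of each heat library and 2.11% to 2.14% of each control library.

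CPM are shares of a library, so the reads taken by these genes bear on the values of the others. Across the 17079 other tested genes with counts in both groups, the median log2 ratio of heat to control was -0.14 per 1000000 gene counts. It was 0.25 when the counts of the 195 genes were left out of the totals. The 145 genes of the mirrored rule stayed in these totals, with 1.67% of the heat counts and 32.2% of the control counts. Their share moves the ratio the other way, so 0.25 is not a corrected value for the other genes.

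Both conditions on level and ratio select on the heat values, so the shares that follow only describe the choice of genes. Of 284 nuclear genes at 500 CPM or more in heat, 281 had a control count, and 195 of these, 69.4%, reached a ratio of 4. Among all 20683 nuclear genes with a control count, whatever their level, 14.7% reached that ratio. The other 86 abundant genes had a median ratio of 2.16. By edgeR's quasi-likelihood test at an adjusted p under 0.05, 44.3% of the 17727 tested genes were higher in heat and 46.4% lower. All 195 passed the count filter and were called higher, and in all 195 every heat library lay above every control library, as it did for 43.3% of the tested genes. The rule used this contrast, so nothing is read from these counts.

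**Figure D2:**
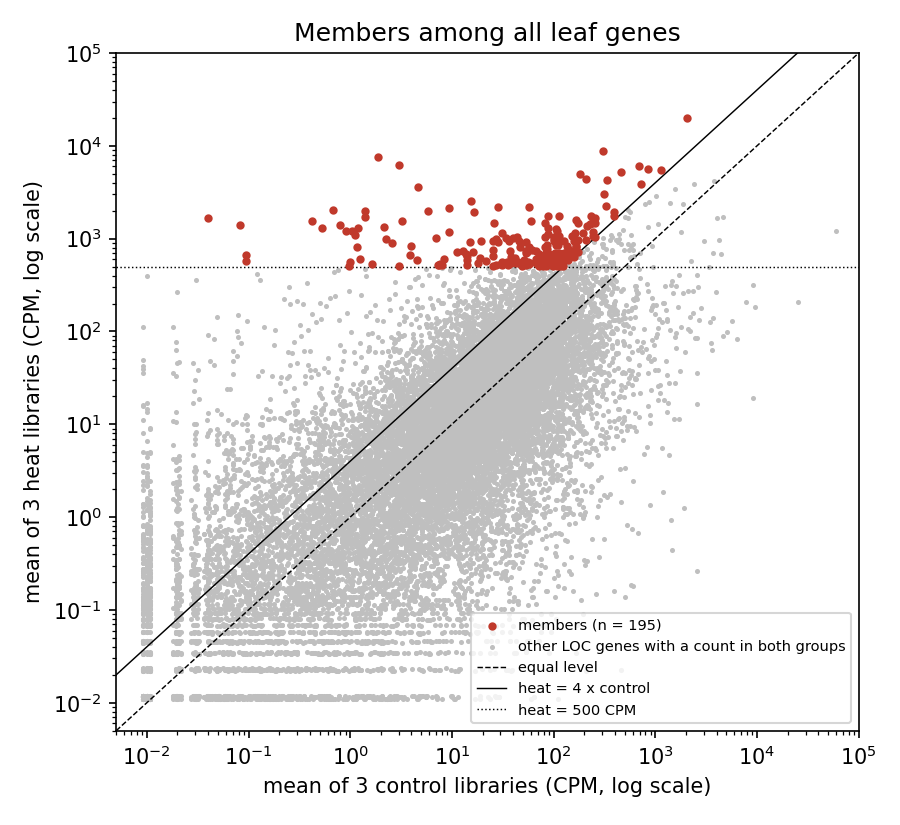
Each point is a nuclear gene with a count in both groups, placed by its mean control level (x axis) and mean heat level (y axis), both in CPM on log scales. The 195 genes (red) fill the corner above 500 CPM in heat and above 4 times control, with control means between 0.0401 and 2067 CPM.

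On the control side the 195 genes ranged from nearly silent to abundant. The lowest control mean was 0.0401 CPM, the median 68.8 CPM and the highest 2067 CPM. In heat the lowest mean was 501 CPM, the median 779 CPM and the highest 19701 CPM. The ratio of heat to control means had a median of 12.4, with quartiles of 6.45 and 45.3. By control level, 10 genes lay below 1 CPM, 29 between 1 and 10 CPM, 88 between 10 and 100 CPM, and 66 between 100 and 1000 CPM. Only LOC133034289 and LOC115722265 were above 1000 CPM in control, and both are also among the 10 most abundant in heat. A ratio under 8 was found for 68 genes, 34.9% of the set, and a ratio of 256 or more for 27 genes, 13.8%.

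By the rule every gene of the set has at least 500 CPM in heat and a heat mean at least 4 times its control mean, so the levels by control class only describe the set. The 10 genes below 1 CPM in control had a median of 1346 CPM in heat, against 0.478 CPM in control. The 29 genes from 1 to 10 CPM in control had medians of 983 CPM in heat and 3.02 CPM in control. The 88 genes from 10 to 100 CPM in control had a median of 649 CPM in heat, against 51.8 CPM in control. The 66 genes from 100 to 1000 CPM had medians of 982 CPM in heat and 154 CPM in control. The 27 genes with a ratio of at least 256 held 4.63% of the heat counts and 0.00413% of the control counts.

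The reads were spread over many genes rather than a few. The 10 most abundant of the 195 held 29.2% of the set's heat CPM, the top 50 held 58.7%, and 35 genes were enough to reach 50% of it. In heat, 8 genes were above 5000 CPM, 13 between 2000 and 5000 CPM, 50 between 1000 and 2000 CPM and 124 between 500 and 1000 CPM. All 10 of the most abundant genes of the heated leaf belonged to the set, as did 74 of the top 100. In control leaves 2 of the top 100 and 5 of the top 200 did. The median rank of the 195 genes by level was 139 in heat and 2704 in control. The rule asks for a high heat level and a lower control level, so these ranks only describe the choice of genes. Of all 281 nuclear genes at 500 CPM or more in heat with a control count, 69.4% belonged to the set.

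CPM are not divided by transcript length, so an order of genes by CPM is an order of read share, not of transcript number. LOC133034289, the gene with the most heat counts, had 19566, 18724 and 20812 CPM in heat libraries, against 1960, 2199 and 2042 CPM in control libraries. Its groups are wide apart, as the rule asks, and it was already the gene ranked 41 in control. LOC133032758 had 8645, 8540 and 8885 CPM in heat, against 309, 294 and 306 CPM in control, a ratio of 28.7. LOC115706731 had 7669, 7725 and 7579 CPM in heat, against 1.53, 1.73 and 2.35 CPM in control. It ranked 3 in heat and 14484 in control, with 47, 57 and 86 counts in the control libraries. LOC115722383 showed the same kind of change, with 6267, 6219 and 6179 CPM in heat, against 3.06, 2.42 and 3.50 CPM in control.

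The next of the 10 most abundant genes were already well expressed in control. LOC115706674 had 5961, 6071 and 6212 CPM in heat, against 704, 678 and 687 CPM in control. LOC115701384 had 5480, 5837 and 5508 CPM in heat, against 828, 867 and 831 CPM in control. LOC115722265 had 5473, 5494 and 5584 CPM in heat, against 1122, 1145 and 1138 CPM in control, and its ratio of 4.86 was the smallest of the 10. In each of these 3 genes the libraries of a group lie close together, and the groups are far apart, as the rule asks. LOC115711417 is annotated as a long non-coding RNA (lncRNA) and had 5251, 5172 and 5123 CPM in heat, against 489, 464 and 418 CPM in control. LOC115705788 had 5044, 4788 and 5023 CPM in heat, against 180, 184 and 175 CPM in control. LOC115706266 had 4260, 4503 and 4259 CPM in heat, against 203, 209 and 217 CPM in control, a ratio of 20.7. The ratios of the 10 genes thus ran from 4.86 to 4100.

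**Figure D3:**
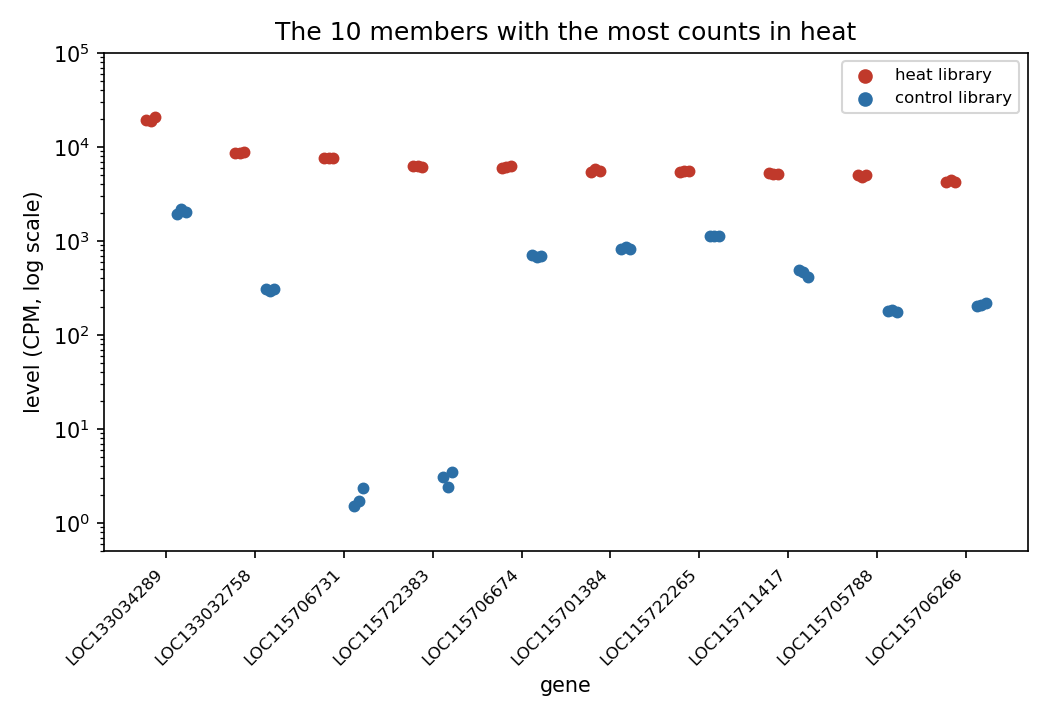
Each point is 1 library, heat in red at the left of each gene and control in blue, for the 10 genes with the highest mean heat level, in CPM on a log scale. Heat points lie between 4259 and 20812 CPM, while control points run from 1.53 CPM for LOC115706731 to 2199 CPM for LOC133034289.

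The highest ratios belonged to genes at the edge of detection in control. LOC115721203 had 1702, 1595 and 1771 CPM in heat libraries, against 1, 2 and 1 counts in control libraries. The ratio of its summed counts per depth was 42396, with an exact 95% interval from 16558 to 155604 that covers counting error only. LOC115696221 had 1398, 1395 and 1402 CPM in heat, against 2, 6 and 0 counts in control, a ratio of summed counts of 17549 (exact 95% interval 8906 to 40649). LOC133037493 had 664, 677 and 664 CPM in heat, against 1, 1 and 8 counts in control, and LOC115718620 had 596, 509 and 615 CPM in heat, against 2, 0 and 8 counts in control. In this pair 8 of the 10 control counts of each gene came from control replicate 3. Without that library the fitted log2 fold change was 14.26 in place of 12.72 for LOC133037493 and 14.03 in place of 12.50 for LOC115718620. For LOC115696221, whose control counts lay mostly in control replicate 2, it was 15.38 without that library in place of 14.09, and 13.46 without control replicate 3, which held 0 of its counts.

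The other 6 of the 10 highest ratios rest on more control counts. LOC115705895 had 1566, 1528 and 1518 CPM in heat, against 9, 7 and 28 counts in control, and its fitted log2 fold change was 12.62 without control replicate 3 in place of 11.83. LOC115698127 had 2141, 1886 and 2100 CPM in heat, against 29, 20 and 17 counts in control. LOC115722750 had 1333, 1296 and 1291 CPM in heat, against 2, 29 and 24 counts in control, so 1 control library stood below the other two by more than 10-fold. LOC115714697 had 1341, 1441 and 1374 CPM in heat, against 22, 29 and 29 counts in control, a mean ratio of 1743. LOC115706731 and LOC115722383, described above, complete the 10 with ratios of 4100 and 2080. They alone are among both the 10 highest ratios and the 10 highest heat levels.

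**Figure D4:**
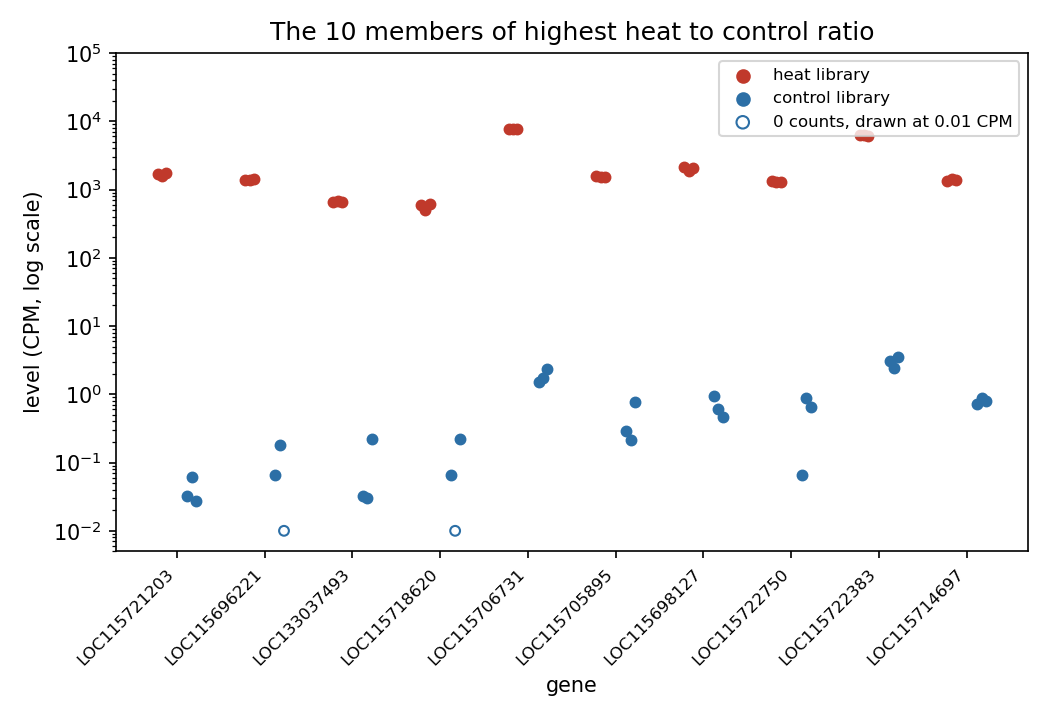
Each point is 1 library, heat in red at the left of each gene and control in blue, for the 10 genes with the highest ratio of heat to control means, in CPM on a log scale. Heat points lie between 509 and 7725 CPM, control points at or below 3.50 CPM, and the 2 control libraries with 0 counts are open circles drawn at 0.01 CPM.

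The condition of at least 1 control count divides genes whose control counts differ little. LOC115712088, LOC115712164 and LOC133028957 reached 500 CPM in heat with 0 counts in every control library and are outside the set. Of these, LOC133028957 had 533, 520 and 535 CPM in heat and was at least 17718-fold higher there when its control group was set to the floor of 3 counts in all. With the same floor LOC115712088, at 3113, 3269 and 3256 CPM in heat, was at least 107453-fold higher. LOC115721203, inside the set, had 4 control counts in all.

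At the threshold of 500 CPM in heat, the 3 genes just inside were LOC115713627, LOC115695946 and LOC133038300, with 501, 502 and 504 CPM. The 3 just outside, with ratios above 4, were LOC115699745, LOC115719433 and LOC115705804, with 496, 495 and 491 CPM. At the ratio of 4, LOC115716102, LOC115713627 and LOC115708919 stood just inside at 4.01, 4.03 and 4.07. LOC115712934, LOC115711388 and LOC115710268 stood just outside at 3.99, 3.98 and 3.96. The heat libraries of LOC115713627 had an SD of 24.5 CPM, wider than the distance of its mean from the threshold.

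By RNA class 192 of the 195 genes are protein-coding and 3 are lncRNA genes. Besides LOC115711417, the lncRNA gene LOC115715231 had 1056, 1034 and 965 CPM in heat, against 32.0, 34.2 and 35.0 CPM in control. LOC115708123, also a lncRNA gene, had 556, 488 and 528 CPM in heat, against 101.3, 114 and 105 CPM in control. The groups do not overlap in either gene, as in all 195, a direction the rule sets. None of the 3 lncRNA genes overlaps another gene of the annotation used here. Of the other 86 abundant heat genes 2 are lncRNA genes, and of the 145 genes of the mirrored rule 0 are.

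Heat levels of the set were tight between libraries. The coefficient of variation (SD over mean, CV) of the heat libraries had a median of 2.25% over the 195 genes and was under 5% in 179 of them. For the other 86 abundant heat genes the median was 2.01%. LOC115717293, chosen here after its values were seen, had the highest heat CV, 14.1%, with 1193, 902 and 1019 CPM in heat, against 247, 250 and 260 CPM in control. LOC115709213, the only other gene at 10% or more, had 920, 890.5 and 752 CPM in heat, against 83.2, 88.4 and 87.4 CPM in control. In both genes, as in all 195, every heat library lay above every control library, a direction the rule sets.

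The control libraries were nearly as tight where counts sufficed. Over the 133 genes with at least 3000 control counts the median control CV was 2.48%, and over all 5972 tested genes with that many control counts it was 2.88%. In this group LOC115697374 alone reached 10%, with 50.1, 61.5 and 58.5 CPM in control, against 809, 799 and 803 CPM in heat. The 195 genes were not raised together in any 1 library of a group. Their median log2 deviation from the group mean was between -0.0041 and 0.0043 for the heat libraries and between -0.0037 and 0.0047 for the control libraries.

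The order of genes along the assembly was not used by the rule. Of the 195 genes, 15 stood directly beside another of the set among protein-coding and lncRNA genes, in 8 pairs. The same count was not made for other sets of genes, so these pairs are not read as clustering. LOC115705897 and LOC115705895 are such a pair. LOC115705897 had 1602, 1576 and 1552 CPM in heat, against 176, 161 and 166 CPM in control, while its neighbour, given above, had 1566, 1528 and 1518 CPM in heat and under 1 CPM in each control library. The 2 genes thus had nearly the same read share in heat and differed over 100-fold in control. LOC115707966 and LOC115707967, another pair, had 894 and 2518 CPM as means in heat, against 2.57 and 15.5 CPM in control.

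One stretch held 3 of the set side by side. LOC115722355 had a mean of 736 CPM in heat, against 154 CPM in control. LOC115722452 had 637 CPM in heat, against 97.8 CPM in control. The last of them, LOC115722383, is the gene at 6222 CPM in heat and 2.99 CPM in control. Their ratios of 4.77, 6.51 and 2080 differ widely although they are neighbours.

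In another stretch LOC115721022 and LOC133035049 stand side by side, with means of 1344 and 510 CPM in heat, against 2.14 and 3.02 CPM in control. One gene further, LOC115721203 has the highest ratio of the set. The gene between, LOC115702019, is not in the set and had 0.966, 0.693 and 1.09 CPM in heat, against 0.975, 0.696 and 0.656 CPM in control, groups that overlap. The remaining pairs, LOC115711355 with LOC115711353, LOC115711284 with LOC115710156 and LOC115712046 with LOC115712056, had ratios from 10.4 to 71.7. Whether neighbouring genes share sequence, and so reads, was not determined here, and reads that align to several places are left out of the gene counts.

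**Figure D5:**
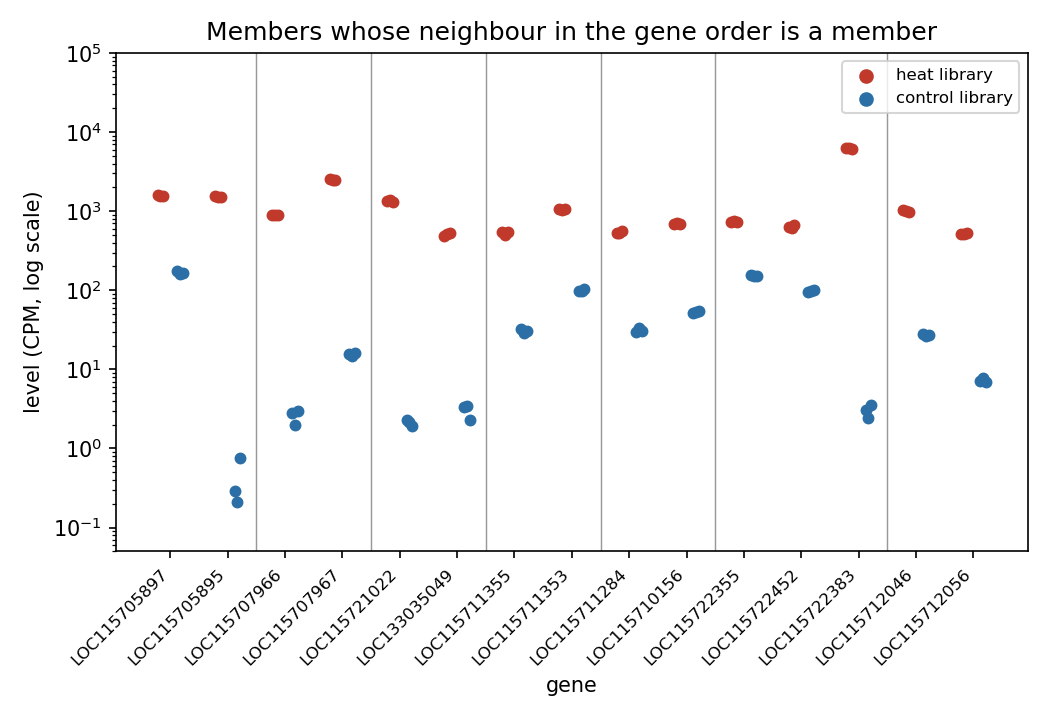
Each point is 1 library, heat in red at the left of each gene and control in blue, in CPM on a log scale, for the 15 genes that stand beside another gene of the set in the gene order. Vertical lines separate the stretches. In the stretch of 3, LOC115722383 is the highest in heat (6222 CPM) and the lowest in control (2.99 CPM).

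The genes next to the set were described in the same way, since the rule did not choose them. The nearest gene on either side gave 372 flanking genes outside the set, of which 251 had enough counts to be tested. Of these 136 were higher in heat, 54.2%, and 90 were lower, 35.9% (edgeR's quasi-likelihood test, adjusted p under 0.05), beside 44.3% and 46.4% of all tested genes. Their median log2 fold change was 0.41, beside -0.05 for all tested genes. Leaving out the flanking genes that overlap a gene of the set gave 131 of 242 higher, 54.1%. For genes flanking the other 86 abundant heat genes the shares were 47.8% higher and 43.5% lower, of 115 tested. For genes flanking the 145 genes of the mirrored rule they were 42.0% higher and 51.5% lower, of 200 tested. These are counts over genes that share libraries, and the difference between the shares was not tested. The tested flanking genes were mostly modest in level, with a median of 24.5 CPM in heat and 19.0 CPM in control. Of all 372, 69 had 0 counts in all 6 libraries.

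Overlap with another annotated gene was counted for the set only, so no share of other genes stands beside it. Of the 195 genes, 13 overlap another gene, with 14 partners, and a read in the overlap may be set aside as ambiguous. LOC115712643 had 565 CPM in heat and 115 CPM in control, and its partner LOC115712642, the partner with the most counts, had 146 CPM in heat and 102 CPM in control. LOC115713493 had 523 CPM in heat and 7.54 CPM in control, and its partner LOC115713490 had 10.7 CPM in heat and 0.464 CPM in control. LOC115709468 had 1211 CPM in heat and 1.04 CPM in control, and its partner had 0 counts in all 6 libraries. Of all listed reads, 1.75% ± 0.0187 were ambiguous between genes in heat and 2.73% ± 0.00877 in control (SD, n = 3 each), and their part in the values of these 13 genes was not tested.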

How the data were processed

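Leaf mRNA was measured in 3 heat and 3 control libraries, grouped by their titles. The authors deposited raw counts per gene for each library, with 5 closing rows that name no gene, which were left out of library totals and tests (gene counts were 84.1% of the listed reads in heat and 88.8% in control). The submitters' processing notes name Trimmomatic 0.39, HISAT2 2.2.1, HTSeq 2.0.5 and DESeq2. What each did, the build and annotation, and whether counting used strand are not given in the sources used here. The deposited normalized copies of the counts were not used. CPM are counts times 1000000 over the library's gene counts. The genes and comparisons were chosen with earlier results of these data known.

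All genes were fitted in R 4.3.3 with edgeR 4.0.16 (filterByExpr, TMM, robust glmQLFit and glmQLFTest, two-sided, Benjamini-Hochberg, threshold 0.05), with no covariate, and with DESeq2 1.42.0 as an alternative. Both were also run on simulated counts in which few genes changed, by modest folds. That setting differs from these data, so it cannot judge scaling or near-zero control counts here. Fitted log2 fold changes of genes near 0 control counts depend on edgeR's prior count. The 95% intervals of count ratios are exact (Clopper-Pearson). Library totals give the depth, and intervals and floors cover counting error only.

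Gene symbols, RNA classes, gene order and overlaps were taken from RefSeq's annotation of assembly ASM2916894v1, which matched all 195 genes by symbol. The assembly is not named by the authors, so no coordinates are given. The table used gives no product names or sequences, so the planned lists by product name or protein signature and the promoter motifs were not analysed here. Named genes are the 10 of highest mean heat CPM, the 10 of highest ratio, the 3 just inside and outside each threshold, and examples chosen after their values were seen (neighbours, overlaps, lncRNA genes and genes of widest spread). Whether same-numbered heat and control libraries were paired is not in the labels. Deviations of same-numbered libraries from their group means correlated over genes at -0.0145, 0.0103 and -0.00536. For differently numbered libraries the values ran from -0.0134 to 0.019. Such correlations cannot tell whether libraries were handled in pairs, and the main fit used no pairing.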

Additional observations from a re-analysis of the deposited data

Results flagged for a closer look

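For 3 kinds of reads that were counted for no gene, each heat library stood above each control library. Outside annotated exons the heat libraries had 6.05% of their listed reads and the control libraries 1.79%. The share that failed to align was 3.09% in heat and 2.43% in control. Alignment to more than 1 place took 5.07% in heat and 4.22% in control. Their part in the levels of the 195 genes was not tested.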

How the results depend on the processing

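The number of genes that meet the rule was 195, and 203 with TMM or 202 with DESeq2 size factors in place of library totals, each holding all 195. Leaving out each library in turn gave 192 to 195, and requiring the thresholds of every library gave 181. A heat mean of 1000 CPM left 71 genes, and a ratio of 8 left 127. As a percentage of the counts of all other genes the summed share was 33.97% in heat and 2.17% in control. As a percentage of all gene counts, leaving out each library gave 25.3% to 25.4% in heat and 2.11% to 2.13% in control. Genes called higher in heat numbered 7355 to 8753 and lower 7698 to 8872 under the alternatives tried, with 7758 and 8113 under the replicate block. Whether same-numbered libraries share more than a number is not in the labels. Flanking genes called higher numbered 129 to 140 and lower 86 to 93. For the 29 genes named by rule, 320 of 348 alternative log2 fold changes moved by less than the replicate spread, and 0 changed sign. The 4 largest shifts are those given for genes with few control counts. Of the 28 values that moved by more than the replicate spread, the next largest shifts were near -0.064, under total-count scaling. The cause of the rest was not tested. Alternatives for gene lists and promoter motifs were not run, since the sources used here give neither product names nor sequences. Depth limits only the control levels of the rarest transcripts.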
